A study of Mus musculus with 186 samples.

Results

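The promoters of Napg and Usf1 were measured in the CpG mutant library of a TrAC-seq experiment, in which their CpGs were removed in graded steps. TrAC-seq is a pooled reporter assay that reads each promoter through DNA barcodes (BCs) after insertion at a fixed place in the genome. Both promoters were chosen by their measured activity in the library, which fell with every step of CpG loss. Those activities are therefore given as a description and without a test. They account for 10 of the 60 constructs and 2 of the 12 promoters of this library. The cells were mouse embryonic stem cells (ESCs) with a cassette exchange site in the beta-globin locus, a region that is silent in ESCs. The groups were WT cells, which carry intact Dnmt1, Dnmt3a and Dnmt3b, and TKO cells, made from the same parental line by deleting these 3 DNA methyltransferase genes with CRISPR-Cas9. Each group had 3 replicates, each with an RNA and a genomic DNA sample. Individual clones of WT cells carrying the library were measured by bisulfite sequencing, and a second library in WT cells held the same promoters without mutations. The sources used here do not say whether replicates were separate cultures or whether the TKO cells derive from a single clone, so p-values cover the spread among the samples at hand, and this spread may be technical.

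CpG islands are stretches of vertebrate DNA in which CpG dinucleotides are frequent, and most of them lie at promoters, including nearly all promoters of housekeeping genes. CpGs elsewhere in the genome are mostly methylated, while those of active islands stay unmethylated. Napg encodes gamma-SNAP, a soluble adaptor of the SNAP family that acts with the ATPase NSF in taking apart SNARE complexes after membrane fusion. Usf1 encodes a widely expressed basic helix-loop-helix leucine zipper transcription factor that binds E-box sequences. Only the promoters were tested here, in front of a reporter gene, and not the products of these genes.

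On mm9 the Napg insert lies at chr18:63137229-63137761 on the plus strand and spans 533 bp. In the GENCODE M1 annotation it begins 261 bp upstream of the start of Napg (ENSMUSG00000024581.6, gene body from 63137490 to 63159104). It runs through exon 1, which ends at 63137678 and holds the start codon at 63137623, into 83 bp of intron 1. The Usf1 insert lies at chr1:173341184-173341734 on the plus strand, spans 551 bp and begins 260 bp upstream of the start of Usf1 (ENSMUSG00000026641.7, gene body from 173341444 to 173349273). Its exon 1 ends at 173341571 and is untranslated, a further 163 bp belong to intron 1, and the start codon lies downstream of the insert at 173344653. Of the annotated transcript starts of each gene, 4 of 8 lie in the Napg insert and 5 of 8 in that of Usf1.

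The CpGs were unevenly placed, as the map of CpG positions shows. The Napg insert held 38 CpGs, 13 upstream of the start and 25 from the start onwards, or 4.98 and 9.19 CpGs per 100 bp. The Usf1 insert held 39 CpGs, 16 upstream and 23 downstream, or 6.15 and 7.90 per 100 bp. The median distance between neighbouring CpGs was 8 bp in Napg and 9.5 bp in Usf1. In both inserts, the part downstream of the start was therefore denser in CpGs, more so in Napg.

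**Figure D1:**
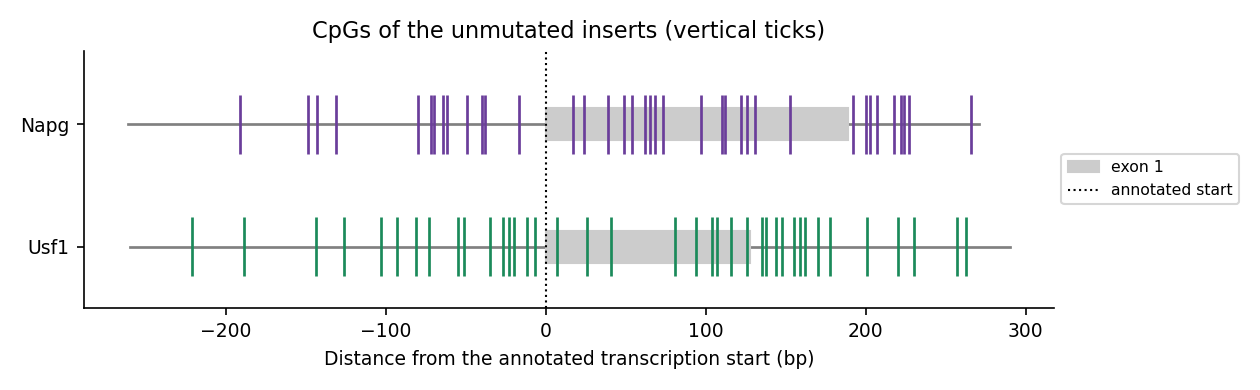
Positions of the 38 CpGs of the Napg insert and the 39 CpGs of the Usf1 insert, as ticks on the distance from the annotated transcription start in bp, with exon 1 as a grey box. CpGs lie on both sides of the start in both promoters, with 25 of 38 and 23 of 39 downstream of it.

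The part of the Usf1 insert upstream of the start is shown as the kind of sequence from which CpGs were removed, with its CpGs in capitals (chr1:173341184-173341443, plus strand, mm9, 5′ to 3′, 16 CpGs in 260 bp). The bases are those of the reference genome, and the positions mutated in individual constructs are not shown.
Usf1 upstream region: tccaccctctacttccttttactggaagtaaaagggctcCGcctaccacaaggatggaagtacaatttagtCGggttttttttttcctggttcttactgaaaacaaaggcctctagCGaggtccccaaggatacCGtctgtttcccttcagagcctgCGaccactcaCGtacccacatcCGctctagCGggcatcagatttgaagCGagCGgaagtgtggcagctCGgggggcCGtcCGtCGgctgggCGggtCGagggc

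Short motifs of factors that bind CpG island promoters were counted in both inserts on both strands. The GC box GGGCGG of the SP1 and SP3 type occurred at 2 places in each insert, in Napg at positions -50 and 202 and in Usf1 at -15 and 6 relative to the start. The Usf1 copy at -15 is on the plus strand and the other 3 are on the minus strand. The hexamer CCGGAA, an ETS sequence of the type bound by GABPA, occurred in Napg alone, at -20 on the minus strand. Other ETS sequences were not counted. The Usf1 upstream region shown above holds GGAAGT, which shares GGAA with this hexamer, in one case preceded by a CpG as CGGAAGT. The NRF1 core TGCGCA occurred in Usf1 alone, at 39. The E-box CACGTG, the type bound by USF1 itself, was in neither insert. Among 32851 RefSeq promoters of 300 bp on GRCm38.p6, GGGCGG occurred in 35.7%, CCGGAA in 14.9%, TGCGCA in 7.76% and CACGTG in 7.15%. These promoters were not limited to CpG islands, and their windows are shorter than the inserts. In a window of that length, from 250 bp before to 50 bp after the start, Napg held 1 GGGCGG and 1 CCGGAA. Usf1 held 2 GGGCGG and 1 TGCGCA there. These matches are descriptions of sequence, and whether the factors bind was not analysed here.

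Each promoter was built with 0, 25, 50, 75 or 100% of its non-motif-CpGs mutated. Non-motif-CpGs are those outside motifs of transcription factors that the study found bound, and the CpGs to be mutated were drawn at random for each construct. A construct therefore need not hold the mutations of the one before it, and each step compares separately drawn constructs. Napg constructs thus had 38, 30, 22, 14 and 5 CpGs and Usf1 constructs 39, 31, 23, 15 and 6. The normalized CpG density, the observed over expected ratio (OE), fell from 0.892 to 0.151 in Napg and from 0.753 to 0.146 in Usf1. In both promoters 33 CpGs were removed in all, while 5 and 6 CpGs in motifs remained. G+C content moved with CpG loss, by 6.17 percentage points to 50.3% in Napg and by 5.97 points to 55.3% in Usf1. CpG number and G+C content cannot be told apart within these series.

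Activity is the geometric mean over the BCs of a construct of RNA over DNA reads, with 0.05 added to each ratio. No log2 activity can therefore be lower than -4.32. A construct passed when 2 or more replicates each had 3 or more BCs. The library held 2169 to 2341 BCs per replicate in WT cells and 710 to 756 in TKO cells, so values in TKO cells rest on fewer BCs. On the log2 scale, replicates of a construct had a median SD of 0.18 in WT and 0.19 in TKO cells. Read totals are unknown, and the number of BCs is the measure of depth.

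In WT cells the Napg promoter lost activity in the first step of CpG loss, little in the second, and again in the 2 later steps. The unmutated construct had activities of 0.880, 0.843 and 1.01 in the 3 replicates, on 68 to 69 BCs. With 25% of non-motif-CpGs mutated, activities were 0.516, 0.517 and 0.568, and with 50% mutated they were 0.419, 0.509 and 0.425. The 25 and 50% constructs did not overlap but came close, with 0.516 as the lowest value of one and 0.509 as the highest of the other. With 75% mutated, activities dropped to 0.160, 0.184 and 0.139. The fully mutated construct had 0.0763, 0.0586 and 0.0637, close to the lowest possible activity of 0.05. On the log2 scale the means were -0.14 ± 0.14, -0.91 ± 0.08, -1.16 ± 0.16, -2.65 ± 0.20 and -3.93 ± 0.19 (SD, n = 3 for each). Activity fell between neighbouring constructs in all 12 replicate steps.

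Relative to the unmutated construct of the same replicate, Napg kept 58.7% of its activity at 25%, 49.4% at 50%, 17.6% at 75% and 7.24% at 100% mutated (geometric means, n = 3). The construct with 16 fewer CpGs was thus 2.02-fold less active, and the construct with 33 fewer was 13.8-fold less active. The 4 steps lowered activity 1.70-fold, 1.19-fold, 2.81-fold and 2.43-fold. The 2 later steps, from 22 to 5 CpGs, carried most of the loss on the log2 scale, while in units of activity the first step was the largest, with a loss of 0.375 between the means.

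The Usf1 promoter started higher in WT cells and lost activity earlier. Its unmutated construct had activities of 1.17, 1.52 and 1.50 on 10 to 14 BCs, above all 3 Napg replicates. With 25% mutated, 2 replicates gave 0.915 and 0.313 on 4 and 3 BCs, while replicate 3 had 2 BCs and no value. These 2 values differ 2.93-fold, and the level of this construct is poorly known. With 50% mutated, activities were 0.184, 0.146 and 0.162 on 28 to 30 BCs, and with 75% mutated 0.0933, 0.0666 and 0.0768. The fully mutated construct had 0.0543, 0.0520 and 0.0553, practically at the lowest measurable value. Mean log2 activities were 0.47 ± 0.21, -0.90 ± 1.10 (SD, n = 2), -2.62 ± 0.17, -3.68 ± 0.24 and -4.21 ± 0.05 (SD, n = 3 except as stated). All 11 replicate steps that could be formed went down.

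Relative activity of Usf1 was 40.1% at 25% (n = 2), 11.8% at 50%, 5.64% at 75% and 3.89% at 100% mutated in WT cells. The Usf1 construct with 16 fewer CpGs was 8.50-fold less active than the unmutated one, against 2.02-fold for the Napg construct with as many fewer. Without mutations Usf1 was 1.53-fold more active than Napg, and with 50% mutated Napg was the more active, at a mean log2 activity of -1.16 against -2.62. The Usf1 construct with 23 CpGs and the Napg construct with 14 CpGs had similar mean log2 activities, -2.62 and -2.65. At 100% both lay within 0.5 of the lowest log2 value, Napg 0.40 and Usf1 0.11 above it, so the sizes of their full losses are limited by the assay.

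**Figure D2:**
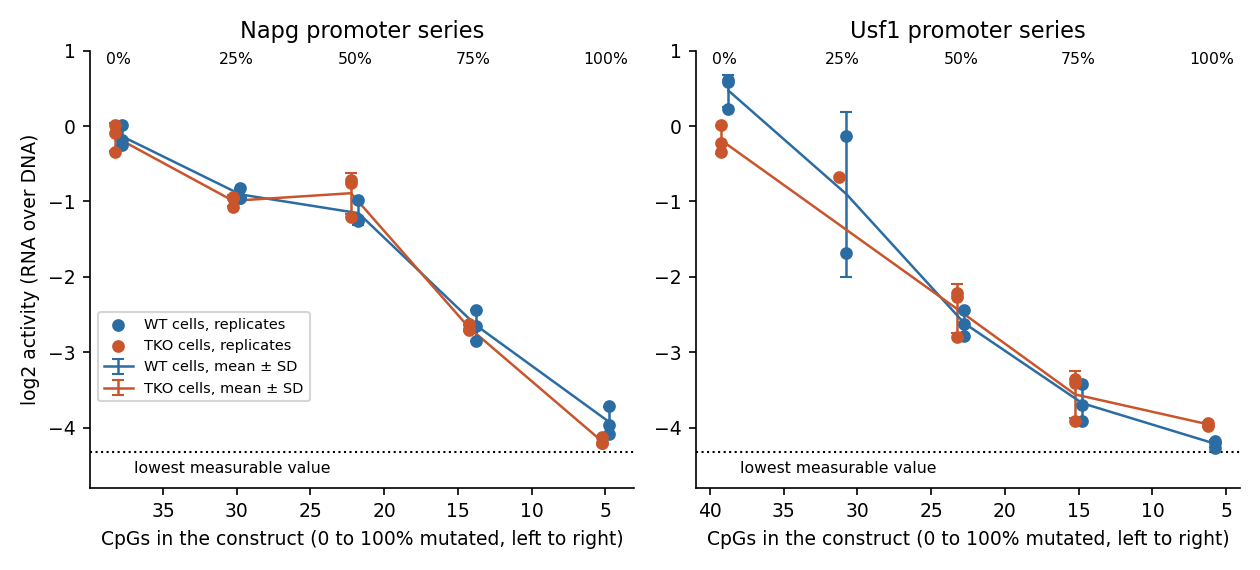
Log2 activity (RNA over DNA) against the number of CpGs left for the Napg and Usf1 series, with a point for each replicate and lines through the mean ± SD in WT and TKO cells; the dotted line marks the lowest measurable value of -4.32. In WT cells Napg goes from -0.14 with 38 CpGs to -0.91 with 30 and -1.16 with 22, while Usf1 is at -2.62 with 23; a single TKO value of Usf1 with 31 CpGs is drawn without a mean.

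A straight line of log2 activity on the number of CpGs gives the loss per CpG. In WT cells it was 0.114 ± 0.0078 for Napg and 0.147 ± 0.0018 for Usf1 (log2 per CpG, SD of 3 replicate slopes). On these lines, a loss of 1 log2 unit takes 8.77 CpGs in Napg and 6.79 in Usf1. The lines hide the shapes of the series. In Napg, log2 activity fell by 0.0311 per CpG between 25 and 50% mutated and fell by 0.186 per CpG between 50 and 75%. In Usf1 it fell by 0.214 per CpG between 25 and 50% and fell by 0.0597 between 75 and 100%, where activity neared its floor. The value of 0.214 rests on the poorly known 25% construct, with 2 replicates on 4 and 3 BCs. Without the fully mutated construct the slope rose to 0.177 in Usf1 and fell to 0.0972 in Napg.

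A fall at every step was not particular to Napg and Usf1. In WT cells 9 promoters had all 5 constructs, and 6 of them fell at every step in the mean: both named here and Nvl, Snrpb2, Nsmce1 and Fam165b. The smallest step was a fall by 0.25 in Napg and by 0.54 in Usf1 on the log2 scale. In the others it was a fall by 0.58 in Nvl, 0.52 in Snrpb2, 0.12 in Nsmce1 and 0.02 in Fam165b. Rrm1 and Cops8 missed the rule by 1 step. Rrm1, a ribonucleotide reductase subunit, rose by 0.06 from 50 to 75% mutated, and Cops8, a COP9 signalosome subunit, rose by 2.80 from 25 to 50% mutated. In TKO cells the Napg means did not fall at every step either, with a rise by 0.10 from 25 to 50%, and 10 of 12 replicate steps went down.

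Among the other promoters of the library, Napg in WT cells was most like Nvl, an ATPase of ribosome biogenesis, with a root mean square difference of 0.34 in log2 relative activity over the 4 mutated steps. Next was Nsmce1, a subunit of the SMC5/6 complex, with 0.55. Usf1 was most like Snrpb2, a spliceosomal protein of the U2 particle, with 0.57, and then Nvl with 1.36, out of 8 other promoters with all 4 values. Nvl kept 66.7, 33.2, 19.3 and 8.92% of its activity at the 4 steps, and Snrpb2 69.8, 15.1, 8.66 and 2.95%. Medians over the other promoters with a value were 66.7% at 25%, 33.6% at 50%, 19.3% at 75% and 10.9% at 100% mutated. Usf1 lay below these medians at every step, and Napg above the median only at 50%. At 100%, however, 7 of the 9 other promoters lay within 0.5 of the lowest log2 value. The percentage that a promoter can keep there, and its slope, are thus bounded by the activity of its unmutated construct. Of the 9 promoters with a slope in WT cells, Usf1 had the steepest and Napg the third, with Snrpb2 between them at 0.146 ± 0.0009. Snrpb2 and Usf1 differed by less than the SD of the Usf1 slopes.

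**Figure D3:**
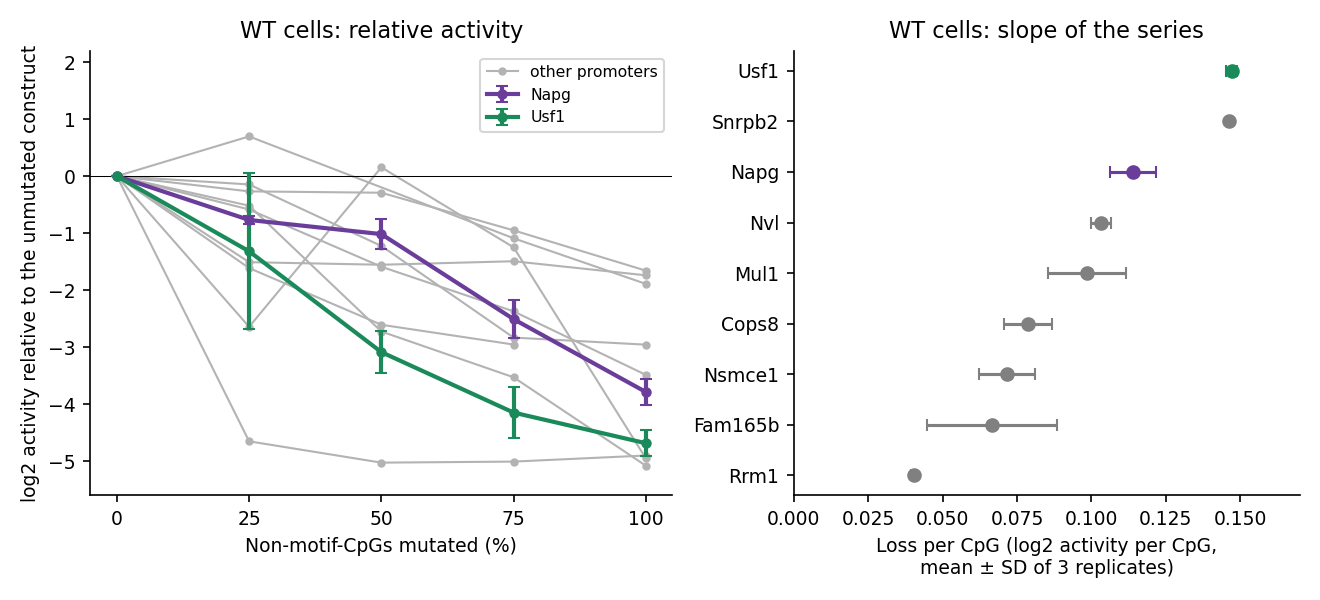
Left, log2 activity relative to the unmutated construct against the percentage of non-motif-CpGs mutated in WT cells, as mean ± SD for Napg and Usf1 and mean for each other promoter in grey. Right, loss per CpG as the slope of log2 activity on CpG number, mean ± SD of 3 replicates, for the 9 promoters with all 5 constructs; Usf1 has 0.147 and Napg 0.114.

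The comparison of TKO with WT cells asks whether activity of these constructs depends on DNA methyltransferases. The promoters were chosen for their fall with CpG loss, and the activities used in that choice enter each difference between the cell lines. The tests on Napg and Usf1 are therefore not independent of the choice, least so on the relative scale and for slopes, which measure the fall itself. Over all constructs, 14 of 51 differed in log2 activity between the cell lines (limma, adjusted p under 0.05), a background of 27.5%, with 7 higher and 7 lower in TKO cells. Most of these calls had an adjusted p of 0.0445, just below the threshold. On the scale relative to the unmutated construct, 4 of 33 mutated constructs were called, or 12.1%. Median log2 activity over the 47 constructs with values in all replicates was 0.26 higher in TKO cells. Centring each replicate on its median lowers the difference of a construct with values in all replicates by that amount. Where a replicate is missing, the shift is another one. After centring, 2 constructs were called higher and 15 lower. Constructs near the lowest log2 value cannot follow a change of scale, so their centred differences are limited by the floor.

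No Napg construct was called on either scale, with 5 tested on log2 activity and 4 on relative activity. The background was 27.5% of 51 and 12.1% of 33 constructs. In TKO cells the unmutated construct had activities of 0.785, 0.940 and 1.01 on 24 to 25 BCs, which overlap those of WT cells. With 25% mutated, activities were 0.519, 0.474 and 0.518, with 50% 0.434, 0.611 and 0.592, and with 75% 0.162, 0.155 and 0.154. The fully mutated construct had 0.0574, 0.0542 and 0.0541 on 9 to 10 BCs, all below the 3 WT values. The replicates of WT and TKO cells overlapped for the other 4 constructs.

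For the unmutated Napg promoter, TKO minus WT was -0.0046 on the log2 scale, with a 95% interval from -0.32 to 0.31 (SE 0.13, limma adjusted p = 0.973). The differences of the mutated constructs ranged from -0.25 at 100%, with an interval from -0.54 to 0.04, to 0.27 at 50%, with an interval from -0.13 to 0.66. All 5 intervals lay within 1 log2 unit of 0, as did the 4 of the relative scale, where the adjusted p-values were at least 0.594. After centring, Napg was called lower in TKO cells at 25% with a difference of -0.35 and at 100% with -0.52 (limma adjusted p = 0.0299 and 0.0102). Whether these constructs are called thus depends on the scaling. Under this setting 17 of all 51 constructs were called, 15 of them lower. Before centring, the means at 100% lay 0.40 in WT and 0.14 in TKO cells above the lowest log2 value. A difference of -0.52 is larger than this floor leaves room for. On the uncentred scale the smallest adjusted p was 0.187.

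For Usf1 the largest difference was in the unmutated construct. Its activities in TKO cells were 1.01, 0.785 and 0.854 on 5 BCs each, all below the WT values of 1.17, 1.52 and 1.50. TKO minus WT was -0.66 on the log2 scale, with a 95% interval from -1.02 to -0.29 (SE 0.15, limma adjusted p = 0.0445), or 0.634-fold. The call was lost when WT replicate 2 or 3 or TKO replicate 2 or 3 was left out, with limma adjusted p-values from 0.0955 to 0.143. After centring, where 17 of all 51 constructs were called, the difference was -0.92 (limma adjusted p = 0.00669).

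The mutated Usf1 constructs were not called on the log2 activity scale, so 1 of 4 Usf1 constructs tested was called there, against a background of 27.5%. With 50% mutated, TKO cells gave 0.216, 0.144 and 0.208 on 12 to 13 BCs, against 0.184, 0.146 and 0.162 in WT cells. With 75% mutated they gave 0.0663, 0.0938 and 0.0981, again overlapping WT. The fully mutated construct had 0.0655 and 0.0634 in the 2 replicates with a value, both above the 3 WT values, with a difference of 0.26 and an interval from 0.01 to 0.51 (limma adjusted p = 0.126). The 25% construct had a value in a single TKO replicate, 0.627 on 3 BCs, and was not tested. Of the 9 constructs of both promoters tested, the replicates of the cell lines did not overlap for 3, the fully mutated Napg construct and Usf1 at 0 and 100%, against a background of 45.1%.

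Relative to its own unmutated construct, Usf1 with 50% mutated kept 21.3, 18.3 and 24.4% in the TKO replicates and 15.7, 9.56 and 10.8% in WT, without overlap. At 100% the replicates did not overlap either, which makes 2 of the 7 constructs of both promoters on this scale against a background of 27.3%. The difference at 50% was 0.85 on the log2 scale, with an interval from 0.29 to 1.41 (SE 0.27, limma adjusted p = 0.0417), a call that held under 3 of 10 alternatives. This was 1 call among the 3 Usf1 constructs tested, against 12.1% over all 33 mutated constructs. At 75% the difference was 0.77 (interval 0.15 to 1.40, limma adjusted p = 0.10) and at 100% 0.83 (interval 0.23 to 1.44, limma adjusted p = 0.0639). These 3 values share the unmutated construct, whose own difference of -0.66 is contained in each of them. Without the division the difference at 50% was 0.19 (limma adjusted p = 0.480), so the call on the relative scale moves with the level of the unmutated construct on 5 BCs in TKO cells. It was also lost with the replicate number as a block and with no BC minimum (limma adjusted p = 0.121 and 0.0708), and without WT replicate 2 or 3 and without TKO replicate 1 or 3, with limma adjusted p-values from 0.123 to 0.334.

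**Figure D4:**
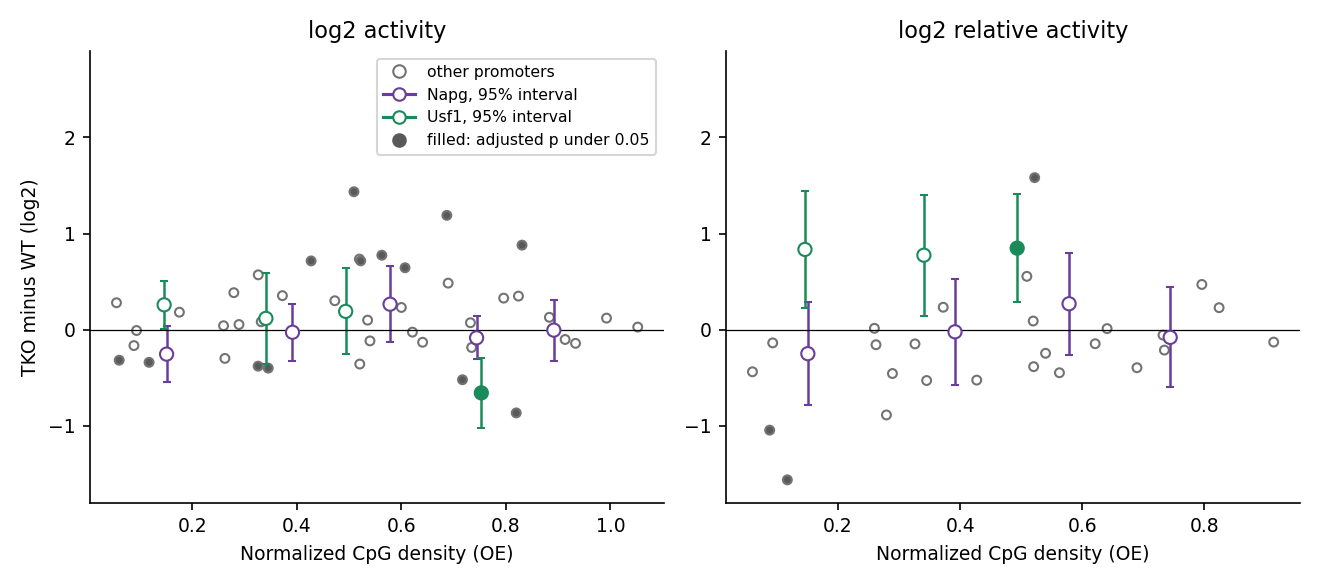
TKO minus WT (log2) against normalized CpG density (OE) for log2 activity of 51 constructs (left) and log2 activity relative to the unmutated construct of 33 constructs (right), with 95% intervals for Napg and Usf1 and filled points for limma adjusted p under 0.05. Napg intervals include 0 in both panels; Usf1 is lower in TKO cells at its highest OE on the left, at -0.66, and above 0 on the right, at 0.77 to 0.85.

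The loss per CpG in TKO cells was 0.120 ± 0.0060 for Napg and 0.128 ± 0.0038 for Usf1 (SD, n = 3). Slopes of the Napg replicates overlapped between the cell lines, with a difference of 0.0056 (exact permutation test, two-sided, p = 0.4, adjusted p = 0.4). Usf1 slopes were 0.148, 0.145 and 0.149 in WT and 0.129, 0.131 and 0.124 in TKO cells, which do not overlap. They rest on 4 to 5 constructs in WT and on 3 to 5 in TKO cells. Lack of overlap was not particular to Usf1. Of the other promoters with all 5 constructs in both cell lines, Fam165b, Nvl and Rrm1 did not overlap either, while Cops8 and Nsmce1 did. The mean Usf1 slope differed by -13% in TKO cells, a difference of -0.0192 (exact permutation test, p = 0.1, adjusted p = 0.2). The smallest p that this permutation test allows for 3 against 3 replicates is 0.1, so it could not pass 0.05. Over the 0, 50 and 75% constructs alone, which all replicates hold, the Usf1 slopes overlapped between the cell lines, with a difference of -0.0352 (exact permutation test, p = 0.2). Without the unmutated construct the difference was -0.0028, with 2 TKO replicates (exact permutation test, p = 1.0). Both of these choices were made after seeing the data.

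Methylation was given for 58 clone measurements of 25 constructs in WT cells, 12 of them for Napg and 1 for Usf1. Napg was the only promoter of the library with clones at all 5 steps. The 4 clones of the unmutated construct had mean methylation levels of 0.0184, 0.313, 0.397 and 1.23% over the promoter's CpGs. With 25% mutated, 2 clones had 0.0168 and 0.0180% and the third 17.2%. The single clone with 50% mutated had 34.9%, those with 75% had 50.5 and 53.6%, and those with 100% had 66.5 and 70.2%. Each clone from the 50% step on lay above every clone with 0 or 25% mutated. Multiplied by the number of CpGs, the mean number of methylated CpGs was 7.67 at 50%, 7.06 and 7.50 at 75% and 3.32 and 3.51 at 100%. Percentages at later steps are thus shares of fewer CpGs.

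The single Usf1 clone carried the 75% construct, with 15 CpGs, and had a level of 80.04%. It was above both Napg clones at this step. Clones of other promoters ranged from 0.0307 to 89% at 75% mutated (12 clones of 5 promoters) and from 33.8 to 77.2% at 100% (4 clones of 3 promoters). Those with no mutations ranged from 0.0183 to 22.8% (9 clones of 3 promoters), so the levels of Napg and Usf1 lie within the ranges of the others at 75 and 100%. With 1 to 4 clones per step and an unknown coverage, no test was made.

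Set beside activity, methylation of Napg in WT cells was at most 1.23% in unmutated clones, whose construct was the most active, and 66.5 and 70.2% in clones of the least active construct. TKO cells lack DNA methyltransferases. At 75% mutated, Napg kept 17.6% of its activity in WT cells, where clones were methylated at 50.5 and 53.6%, and 17.3% in TKO cells. At 100% it kept 7.24 and 6.09%. Activity was measured in pools and methylation in single clones, and the methylation of TKO cells was not measured in these values.

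**Figure D5:**
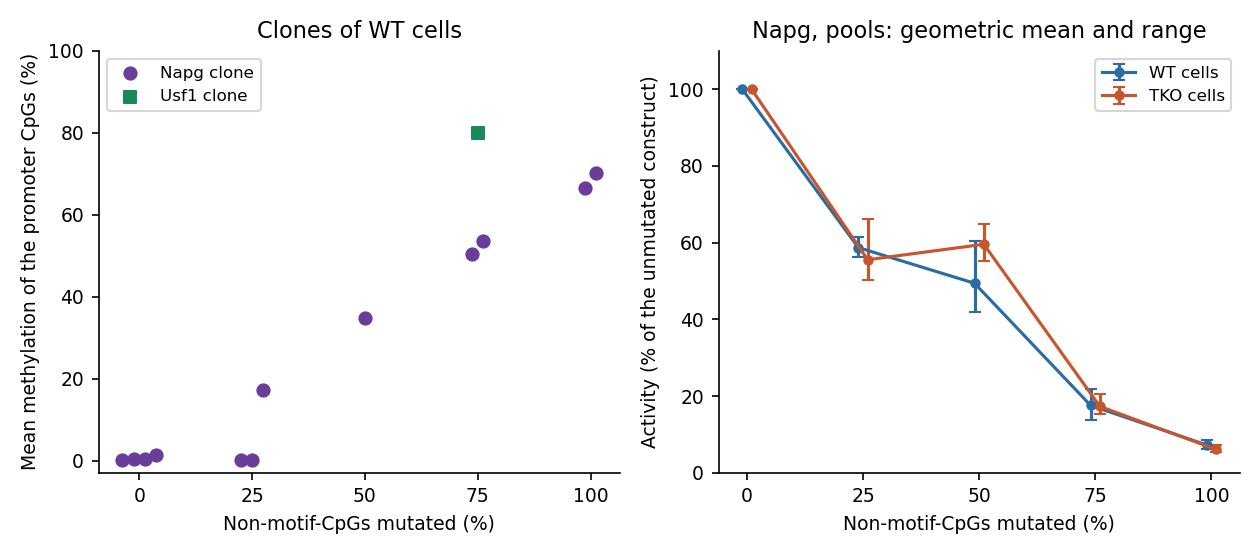
Left, mean methylation (%) of the promoter CpGs in each clone of WT cells against the percentage of non-motif-CpGs mutated, for 12 Napg clones and 1 Usf1 clone. Right, activity of Napg as a percentage of the unmutated construct in WT and TKO cells, geometric mean with the range of 3 replicates; methylation goes from at most 1.23% to 66.5 and 70.2% while relative activity goes to 7.24% in WT and 6.09% in TKO cells.

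Both promoters were also present without mutations in the second library, an independent pool of housekeeping promoters in WT cells that was scaled separately. There Usf1 ranked 5 and Napg 19 among 60 constructs by mean log2 activity, whose median was -2.93. Usf1 had activities of 1.26, 5.13 and 5.47 on 8 to 10 BCs, and Napg 1.17, 0.841 and 1.79 on 6 to 7 BCs. Mean log2 activities were 1.72 ± 1.19 and 0.27 ± 0.55 (SD, n = 3). Usf1 was higher than Napg in each replicate of this pool, 1.08-fold, 6.10-fold and 3.05-fold, and in each WT replicate of the CpG mutant library, 1.33-fold, 1.81-fold and 1.48-fold. In TKO cells the ratio was 1.29, 0.835 and 0.848, and Usf1 was the lower in 2 of 3 replicates.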

How the data were processed

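Data of the CpG mutant library (3 WT and 3 TKO replicates), the second housekeeping library (3 WT replicates) and bisulfite-sequenced clones were used. Groups and replicate numbers follow the labels. Activities were deposited by the authors as a ratio: RNA and DNA barcode reads of a sample pair were scaled to the smaller total, only BCs above 20 DNA reads entered, each ratio was raised by 0.05, and BCs were combined by their geometric mean. G+C content was deposited as a percent and OE as a ratio. The authors deposited methylation as a fraction per clone measurement, the average of its promoter CpGs, and it is printed in percent here. BC and CpG numbers were used as deposited. The submitters' processing notes name Bowtie, with no version, and mm9.

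Activities were converted to log2 without a further pseudocount. TKO and WT cells were compared with limma 3.58.1 in R 4.3.3, two-sided, over all constructs for which 2 or more replicates of each cell line had 3 or more BCs. P-values were adjusted by Benjamini-Hochberg and called under 0.05, and intervals are 95%. For relative activity, the unmutated construct had to pass as well. Slopes were fitted by least squares per replicate and compared by exact permutation, adjusted over both promoters. The fit was tested on simulated data. Further steps ran in Python 3.11.15 with scipy 1.17.1, pandas 2.3.3 and numpy 2.4.6, and plots in matplotlib 3.10.9. Sequence was read from NCBIM37 (mm9) with GENCODE M1, and coordinates are 1-based. Of both symbols, 1 matched in the RefSeq promoter table.

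The promoters, lists and tests were chosen with earlier results of these data known. All constructs of Napg and Usf1 are named, with the 2 promoters nearest to each by relative activity and those missing the rule by 1 step; Fam165b was named after its values were seen. Alternatives were the scaling, the BC minimum, the pseudocount, the constructs in the line, the replicate number as a block and each replicate left out. Same-numbered WT and TKO replicates deviated together with correlations of 0.153, 0.0303 and 0.427, and the labels do not tie them, so they were not treated as pairs. Other libraries were not used here.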

Additional observations from a re-analysis of the deposited data

Results flagged for a closer look

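At 50% of non-motif-CpGs mutated, the relative activity of Usf1 passed a test of its difference between WT and TKO cells. Usf1 was chosen for its fall with CpG loss, however, so the test is not independent of the choice. Log2 activity relative to the unmutated construct was 0.85 higher in TKO cells, at -2.24 against -3.09, and higher in 3 of 3 replicates than in any WT replicate (limma adjusted p = 0.0417, range over the alternatives 0.00796 to 0.480). The call held under 3 of 10 alternatives. It was 1 of 3 Usf1 constructs tested on this scale, where 4 of 33 mutated constructs (12.1%) were called. Replicates of the cell lines did not overlap for 27.3% of these 33 constructs. The unmutated Usf1 construct rests on 5 BCs per TKO replicate and was itself 0.66 lower there on the log2 activity scale. The part of this level in the difference at 50% was not tested beyond taking the difference without the division, which gave 0.19.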

How the results depend on the processing

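Of 258 values under alternatives, 11 changed sign, 10 of them differences of single constructs. The count of constructs called on log2 activity (14 of 51) went to 0 with the replicate number as a block (replicate block; 17 at an unadjusted limma p under 0.05), 2 of 27 with at least 10 BCs and 1 with 0.05 more added, and ranged from 0 to 8 with 1 replicate left out (15 to 20 at an unadjusted limma p under 0.05). On relative activity (4 of 33) it went to 1 with the replicate block and to 0 of 13 with at least 10 BCs (2 at an unadjusted limma p under 0.05), where Usf1 could not be fitted. Without division by the unmutated construct it was 2 of 41, a larger set on the log2 activity scale. With a replicate left out it was 1 to 8 of 33. Under the replicate block both Usf1 calls were lost, with limma adjusted p-values of 0.112 and 0.121, and no Napg call changed. With 0.05 more added the unmutated Usf1 construct had a limma adjusted p of 0.0581, and with no BC minimum Usf1 at 50% had 0.0708 on the relative scale. Paired by number, differences in slope gave p = 0.25 for both promoters (exact sign-flip test, the smallest p it allows).

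Centring turned the uncalled log2 differences of Usf1 to -0.074 at 50%, -0.147 at 75% and -0.035 at 100%. With 1 replicate left out, Napg differences around 0 changed sign, from -0.081 to 0.099 unmutated and from -0.129 to 0.076 at 75% in log2 activity, and from -0.201 to 0.135 at 75% in relative activity. Without the fully mutated construct, slopes in WT and TKO cells were 0.0972 and 0.0936 in Napg and 0.177 and 0.143 in Usf1, and the Napg difference turned to -0.0035. With 0.05 more added they were 0.0925 and 0.0953, and 0.119 and 0.104; over the 0, 50 and 75% constructs alone, chosen after seeing the data, Usf1 had 0.176 and 0.140. Log2 relative activity of the fully mutated constructs was, with 0.05 more added, -3.05 and -3.18 in Napg and -3.79 and -3.10 in Usf1. That addition raises the lowest possible value.

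With 1 replicate left out, 52 to 58 constructs passed in the second library, fewer than with all replicates. Among them the rank was 15 to 17 for Napg and 5 to 11 for Usf1. With at least 10 BCs neither promoter passed. The few BCs of Usf1 in TKO cells and the floor at -4.32 limit these comparisons.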
